A study of Mus musculus with 12 samples.

Results

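The 10 genes described here were chosen by name: Lpl, Fabp4, Cd36, Plin2, Plin4, Lipe, Pnpla2, Dgat1, Slc2a4 and Angptl4, which serve lipid and glucose uptake, droplet storage and lipolysis. All 10 were found by symbol among the 37991 gene identifiers counted in mouse embryonic fibroblasts, connective tissue cells grown from embryos, and all 10 passed the filter on low counts that left 15098 genes. The study put 3 libraries in each of 4 genotype groups: wild type (WT), Ing1-/- (Ing1 KO), Gadd45a-/- and Gadd45a-/-;Ing1-/- (DKO). All cells were labelled C57BL/6N and male, came from E15.5 embryos, and were undifferentiated primary cells harvested at passage 4 and 80% confluency, with no agent that induces fat cells named in the labels. Mutant mice of both genes were crossed to give all the embryos, and the controls were labelled as carrying neither loss. The labels do not say which libraries came from separate embryos, so the p-values measure the spread between these libraries, which may be technical.

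Lipoprotein lipase, the product of Lpl, frees fatty acids from circulating triglyceride, and Angptl4 encodes a secreted inhibitor of it. CD36 carries fatty acids into the cell, FABP4 binds them in the cytosol, DGAT1 joins the last fatty acid to make triglyceride, and perilipins such as those of Plin2 and Plin4 coat the droplet. The lipases of Pnpla2 and Lipe break the stored fat down again, and GLUT4, the product of Slc2a4, brings in glucose in response to insulin. Many of these genes are targets of the PPAR family of nuclear receptors. Cd36, Lpl, Fabp4 and Plin2 are also made by macrophages, Cd36 and Fabp4 by endothelial cells, and Lpl and Slc2a4 by muscle. Plin2, Pnpla2 and Dgat1 are expressed in most cell types.

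Levels are CPM, the share of a library's gene counts that fall on a gene, scaled by its TMM-normalised total to a common size. A gene is called when its edgeR adjusted p is under 0.05, and the difference is given as a log2 fold change with its standard error (SE). Library totals ran from 31493168 to 42852059 gene counts. The level of Ing1 was 52.3 ± 2 CPM (WT) and 52.2 ± 2.4 CPM (labelled Gadd45a-/-), against 1.22 ± 0.2 CPM (Ing1 KO) and 1.12 ± 0.19 CPM (labelled DKO), as mean ± SD of 3 libraries. Gadd45a went against its label: its level was 21.1 ± 0.2 CPM (WT) and 18.4 ± 1.9 CPM (Ing1 KO), against 100 ± 22 CPM (labelled Gadd45a-/-) and 126 ± 6.3 CPM (labelled DKO), as mean ± SD of 3 libraries. Which part was deleted is not stated in the labels, and a count taken outside it checks nothing. Gadd45a also overlaps E230016M11Rik on the other strand. The group means of that gene were 0.395 CPM (WT), 0.443 CPM (Ing1 KO), 0.0429 CPM (labelled Gadd45a-/-) and 0.0596 CPM (labelled DKO). Every direction below rests on these labels, and the names "labelled Gadd45a KO" and "labelled DKO" are used throughout.

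Markers of the fibroblast were abundant and the defining markers of the fat cell were almost absent. Col1a1 stood between 18100 and 24400 CPM and Pdgfra between 320 and 799 CPM over the 12 libraries. Fibroblast markers differed by genotype: of 12, 3 were called higher and 5 lower in Ing1 KO against the WT (66.7%, beside 23.5% of all genes). From the WT to Ing1 KO, group means went from 716 to 412 CPM for Pdgfra and from 7710 to 10500 CPM for Fn1. In the labelled DKO against the WT, 0 were called higher and 3 lower (25%, beside 25.9%). The part of these differences in the results below was not tested. Of the defining fat cell genes, Adipoq, which encodes adiponectin, reached at most 4 reads in a library and was at 0 in 7 of 12. Plin1, the droplet coat of mature fat cells, reached at most 2 reads, and Lep and Retn at most 1. The 10 genes described here were thus measured in cells almost without the defining markers of fat cells. Of all 14 fat cell identity genes listed, 5 passed the filter on low counts. Among those 5, Cebpa stood between 4.61 and 10.5 CPM and Pparg between 1.23 and 2.5 CPM over the 12 libraries. Macrophage genes were present in every library: 25 markers summed to 355 to 611 CPM in the WT, 188 to 728 CPM in the labelled Gadd45a KO, 468 to 837 CPM in Ing1 KO and 2920 to 3570 CPM in the labelled DKO. Labelled Gadd45a KO replicate 1 was lowest, at 188 CPM, beside 728 and 711 CPM in replicates 2 and 3. Of the defining endothelial genes Tie1 was at 0 in 11 of 12 libraries, Cdh5 reached at most 0.554 CPM and Pecam1 at most 1.32 CPM, and of the defining muscle genes Myod1 and Ckm were each at 0 in 9 of 12 libraries and Myog in 5 of 12.

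The levels of the 10 genes spanned a wide range in the WT. Per kilobase of the principal transcript, Plin2 stood at 62.5 CPM and Lpl at 53 CPM, followed by Angptl4 at 19.3, Dgat1 at 9.88, Pnpla2 at 9.04, Fabp4 at 6.4 and Cd36 at 2.46 CPM per kilobase. Lipe at 0.807, Slc2a4 at 0.669 and Plin4 at 0.087 CPM per kilobase were lowest. With the length of all annotated exons joined in place of the principal transcript, Fabp4 stood at 1.28 and Cd36 at 2.33 CPM per kilobase, so the order of these neighbours depends on the length used. In the labelled DKO, Cd36 reached 10.5 CPM per kilobase, next to Pnpla2 at 10.2, Dgat1 at 9.9 and Fabp4 at 9.47. With the joined exons these were 9.99 for Cd36, 6.05 for Pnpla2, 6.12 for Dgat1 and 1.89 CPM per kilobase for Fabp4, so this likeness depends on the length as well.

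RefSeq promoters (GRCm38.p6) were at hand for 5 of the 10 genes. The 250 bases before the listed start are shown for Cd36 and Plin2, which were both higher in the labelled DKO, and for Plin4, which went the other way. Capitals mark a match to AGGTCA, the core letters that nuclear receptors bind, on either strand. The windows are chr5:17835897-17836146 for Cd36, chr4:86670060-86670309 for Plin2 and chr17:56109783-56110032 for Plin4, all on the minus strand and printed 5′ to 3′ along the gene.
Cd36: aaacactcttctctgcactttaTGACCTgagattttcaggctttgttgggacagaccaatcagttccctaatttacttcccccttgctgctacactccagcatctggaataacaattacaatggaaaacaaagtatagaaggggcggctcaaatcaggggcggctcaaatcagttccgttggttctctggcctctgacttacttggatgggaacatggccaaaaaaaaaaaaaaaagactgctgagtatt
Plin2: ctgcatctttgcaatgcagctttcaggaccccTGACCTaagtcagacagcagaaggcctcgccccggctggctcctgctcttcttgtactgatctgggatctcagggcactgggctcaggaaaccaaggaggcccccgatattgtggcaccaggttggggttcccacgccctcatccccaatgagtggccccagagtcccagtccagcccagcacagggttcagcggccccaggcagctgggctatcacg
Plin4: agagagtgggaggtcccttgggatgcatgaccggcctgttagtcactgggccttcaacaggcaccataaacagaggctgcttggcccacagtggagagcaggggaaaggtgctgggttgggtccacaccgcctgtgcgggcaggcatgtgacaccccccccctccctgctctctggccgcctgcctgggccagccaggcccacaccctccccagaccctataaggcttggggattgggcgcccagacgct
Cd36 and Plin2 each held 1 match, written TGACCT on this strand, and Plin4 held none. Among all 32851 listed promoters, 14% held a match in the same window. GAGGAA, the core of the motif of the macrophage factor PU.1, and TTGCNNAA, the core of the C/EBP motif, had no match in these 3 windows on either strand, and were held by 23.3% and 9.56% of all promoters. Of the windows not shown, both listed for Lipe held 1 GAGGAA match each, the single one for Pnpla2 held none, and neither gene had AGGTCA or TTGCNNAA. These are matches of letters and say nothing about binding.

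**Figure D1:**
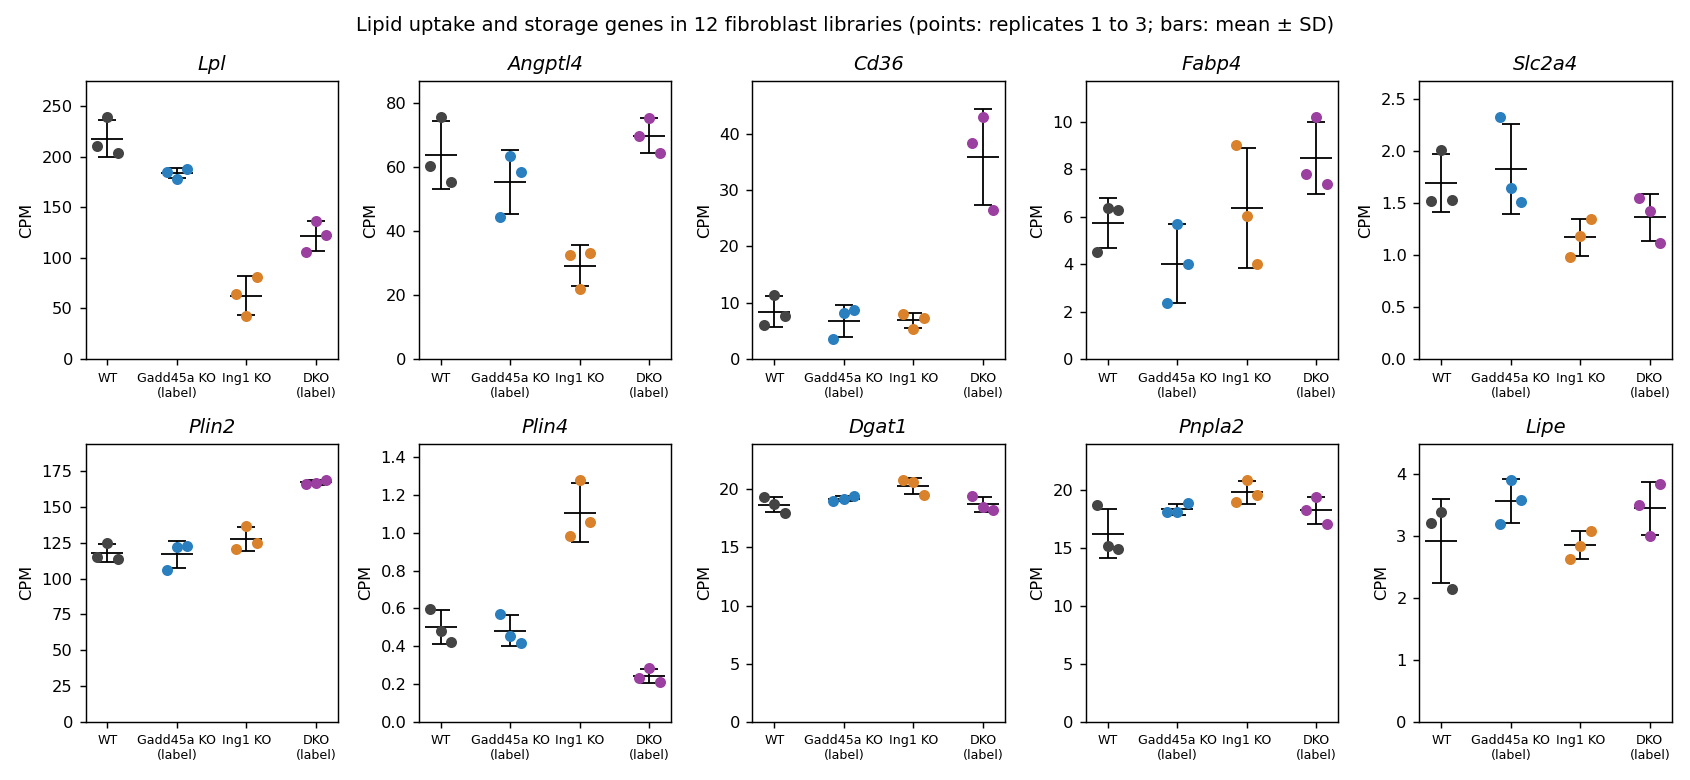
Level (CPM, linear axis from 0) of each of the 10 genes in the 12 libraries, by genotype group; points are replicates 1 to 3 and bars the mean ± SD (n = 3). Lpl and Angptl4 were lowest in Ing1 KO, Cd36 and Plin2 were highest in the labelled DKO, and Plin4 was highest in Ing1 KO and lowest in the labelled DKO.

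The first question was what differs when Ing1 alone is lost. In Ing1 KO against the WT, the extracellular lipase and its inhibitor both fell: Lpl fell 3.48-fold and Angptl4 fell 2.18-fold. Plin4, a droplet coat of low level, rose 2.19-fold, and Pnpla2, the lipase of the first step of fat breakdown, rose 1.22-fold. These were the 4 of 10 genes called, 2 higher and 2 lower, beside 23.5% of all genes tested (12.1% higher and 11.4% lower). Libraries did not overlap between the groups for 6 of the 10, beside 37.2% of all genes. The median log2 fold change of the 10 was 0.04, and of all genes -0.0026.

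Lpl stood at 211, 239 and 204 CPM in WT replicates 1 to 3 and at 64.1, 42.4 and 81.4 CPM in Ing1 KO. Every Ing1 KO library lay below every WT library, and the spread within Ing1 KO was wide. The log2 fold change was -1.80 ± 0.20 (edgeR adjusted p = 0.000551). Angptl4 stood at 60.4, 75.6 and 55.3 CPM in the WT and at 32.5, 22 and 33.2 CPM in Ing1 KO. The groups did not overlap, and Ing1 KO replicate 2 was lowest for both genes. The log2 fold change of Angptl4 was -1.13 ± 0.19 (edgeR adjusted p = 0.00339).

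Plin4 stood at 0.599, 0.481 and 0.421 CPM in the WT and at 0.982, 1.28 and 1.06 CPM in Ing1 KO, and its rise on the log2 scale was 1.13 ± 0.22 (edgeR adjusted p = 0.0034). The groups did not overlap, but the level is low: the 12 libraries held 8 to 53 reads of this gene. Plin4 also overlaps Hdgfl2 on the other strand, and the library kit does not mark strand; the mean level of Hdgfl2 was 66.5 ± 5.5 CPM (WT) and 75.2 ± 0.86 CPM (Ing1 KO), with SD over 3 libraries, and its log2 fold change was 0.18. Pnpla2 stood at 18.7, 15.2 and 14.9 CPM in the WT and at 19, 20.9 and 19.6 CPM in Ing1 KO. WT replicate 1 lay close to the Ing1 KO libraries. The log2 fold change of Pnpla2 was 0.29 ± 0.083 (edgeR adjusted p = 0.0242), and the call was lost when only these groups were fitted (0.28, adjusted p = 0.0717) or without WT replicate 2 (0.102), WT replicate 3 (0.0946) or Ing1 KO replicate 2 (0.103).

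The other 6 genes did not pass the test in Ing1 KO. Slc2a4 had the largest difference among them, with means of 1.17 ± 0.18 CPM against 1.69 ± 0.28 CPM for the WT (SD of 3 libraries). Its log2 fold change was -0.53, with a 95% interval from -1 to -0.055 (edgeR adjusted p = 0.0996). Dgat1 had a log2 fold change of 0.12 (interval 0.0043 to 0.24) and Plin2 of 0.11 (-0.023 to 0.25). The intervals of Fabp4 (-0.61 to 0.91), Cd36 (-1.11 to 0.55) and Lipe (-0.4 to 0.34) were wide. None of the 25 macrophage markers was called in this comparison by edgeR, and their median was 0.22 (log2). Of 6 skeletal muscle markers tested, 1 was called higher and 1 lower (33.3%, beside 23.5% of all genes). Markers of this tissue, which makes Lpl and Slc2a4, summed to 56.2 to 58.5 CPM over WT libraries and 83.8 to 134 CPM over Ing1 KO libraries. Nearly all of that sum was Des, at 34.4 ± 3.8 against 58.7 ± 20 CPM (not called), and Acta1, at 21.4 ± 2.8 against 50.9 ± 13 CPM (called higher). Myh3, a myosin gene of embryonic muscle, went from 0.554 ± 0.12 to 0.0591 ± 0.065 CPM (called lower; SD, n = 3), and Pax7 was at 0 in all 12 libraries. The part of muscle cells in these results was not tested.

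**Figure D2:**
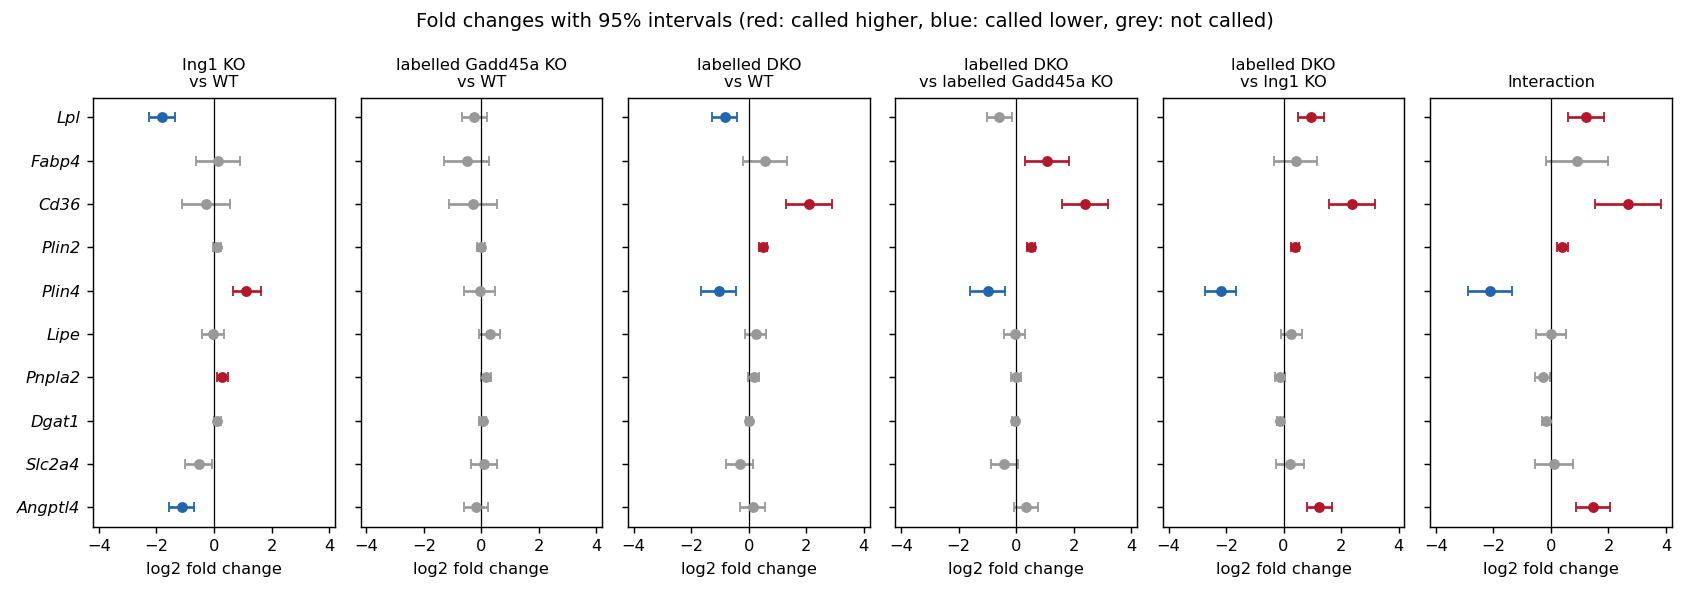
Log2 fold change (x axis) of each of the 10 genes in the 6 comparisons, with 95% intervals; red and blue mark genes called higher and lower, grey those not called. The labelled Gadd45a KO against the WT holds no called gene, and Cd36 has the largest rise, 2.1 to 2.67, in each comparison that involves the labelled DKO.

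The next comparison was of the labelled Gadd45a KO against the WT. None of the 10 genes was called by edgeR, and none had an unadjusted edgeR p under 0.05. Of all 15098 genes tested edgeR called 1 (0.00662%), Gadd45a itself, which was higher (log2 fold change 2.24, edgeR adjusted p = 0.000342). DESeq2 called none of the 10 either, but gave no adjusted p for Plin4 and Slc2a4. It called 31 of all genes. The narrowest interval was that of Dgat1, with a log2 fold change of 0.041 (95% interval -0.075 to 0.16), and that of Plin2 ran from -0.15 to 0.12. Lpl stood at 185, 178 and 188 CPM in the labelled Gadd45a KO, below the 204 to 239 CPM of the WT. The groups did not overlap for this gene alone of the 10, beside 14.7% of all genes, and the log2 fold change was -0.25 (interval -0.69 to 0.19, edgeR adjusted p = 0.752). Fabp4 had the largest fold change, -0.51 (log2) with an interval from -1.29 to 0.27, at means of 4.03 ± 1.7 CPM against 5.73 ± 1.1 CPM (SD, n = 3). In labelled Gadd45a KO replicate 1, the library with the lowest macrophage sum, Fabp4 at 2.37 CPM, Cd36 at 3.49 CPM and Plin2 at 106 CPM were at their lowest over the 12 libraries. Lpl, which macrophages also make, was at 185 CPM there, between replicates 2 and 3 at 178 and 188 CPM. The part of macrophages in these levels was not tested.

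The labelled DKO was then set against the WT to ask what differs in cells labelled as lacking both genes. Cd36, the fatty acid transporter, rose 4.28-fold and Plin2, the droplet coat of most cells, rose 1.42-fold. Lpl fell 1.79-fold and Plin4 fell 2.07-fold. These 4 of 10 genes were called, 2 higher and 2 lower, beside 25.9% of all genes tested (15.6% higher and 10.3% lower). The groups did not overlap for 5 of the 10, beside 41.3% of all genes. The median log2 fold change of the 10 was 0.15, and of all genes 0.0085.

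Cd36 stood at 6.04, 11.4 and 7.67 CPM in the WT and at 38.3, 42.9 and 26.4 CPM in the labelled DKO. Every labelled DKO library lay above each of the other 9 libraries, which ran from 3.49 to 11.4 CPM. The log2 fold change was 2.1 ± 0.35 (edgeR adjusted p = 0.00266). All 25 macrophage markers rose in the same comparison, with a median of 2.53 (log2) and a range of 1.99 to 3.54, among them Siglec1 at 2.94, Fcgr2b at 3.54 and Pf4 at 3.07. Of the defining markers, Ptprc went from 10.2 ± 3.1 to 43.2 ± 4.1 CPM and Csf1r from 27.1 ± 5.5 to 138 ± 20 CPM (SD, n = 3). Endothelial markers summed to 154 to 191 CPM over WT libraries and 239 to 279 CPM over labelled DKO libraries, but nearly all of that sum was Flt1, at 165 ± 19 against 251 ± 21 CPM, which was not called (adjusted p = 0.0683). Of 9 tested, 33.3% were called, beside 25.9% of all genes: Pecam1 (2.44) and Kdr (0.88) higher and Tek (-2.26) lower (log2). Tie1 was at 0 in 11 of 12 libraries and Cldn5 in all 12. For each 100 CPM of summed macrophage markers there were 0.905 to 1.45 CPM of Cd36 in the labelled DKO and 0.874 to 1.86 CPM in the other 9 libraries, ranges that overlap. In whole cultures, more cells of a type and more RNA per cell cannot be told apart, and the part of macrophages or endothelial cells in these results was not tested.

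Plin2 stood at 115, 125 and 114 CPM in the WT and at 166, 167 and 169 CPM in the labelled DKO. These libraries differed little among themselves and lay above all the others, which reached 137 CPM in Ing1 KO replicate 2. The log2 fold change was 0.50 ± 0.063 (edgeR adjusted p = 0.000168). Lpl stood at 106, 136 and 123 CPM in the labelled DKO, between Ing1 KO and the WT with no overlap with either. Its log2 fold change against the WT was -0.84 ± 0.20 (edgeR adjusted p = 0.0124). Macrophage markers were higher in the same libraries, and the part of macrophages in the levels of Plin2 and Lpl was not tested.

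Plin4 stood at 0.23, 0.284 and 0.212 CPM in the labelled DKO, below every other library, and its log2 difference was -1.05 ± 0.28 (edgeR adjusted p = 0.0153). This call rested on few reads, and it was lost with DESeq2 (adjusted p = 0.0578) and without WT replicate 1 (0.0719), labelled DKO replicate 1 (0.0533) or labelled DKO replicate 3 (0.0532). Fabp4 stood at 7.82, 10.2 and 7.4 CPM, above the 4.52 to 6.39 CPM of the WT, and was not called (log2 fold change 0.56, 95% interval -0.19 to 1.32, edgeR adjusted p = 0.258). It was called when only these groups were fitted (log2 fold change 0.55, adjusted p = 0.0268). Angptl4 stood at 69.6, 75.4 and 64.4 CPM, within reach of the WT, with a log2 fold change of 0.13 (interval -0.29 to 0.55). Dgat1 at 0.0024 (interval -0.11 to 0.12), Pnpla2 at 0.17 (-0.013 to 0.35), Lipe at 0.24 (-0.13 to 0.61) and Slc2a4 at -0.31 (-0.79 to 0.16) did not pass the test either. Pnpla2 was called without WT replicate 1 (0.28, adjusted p = 0.0172).

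**Figure D3:**
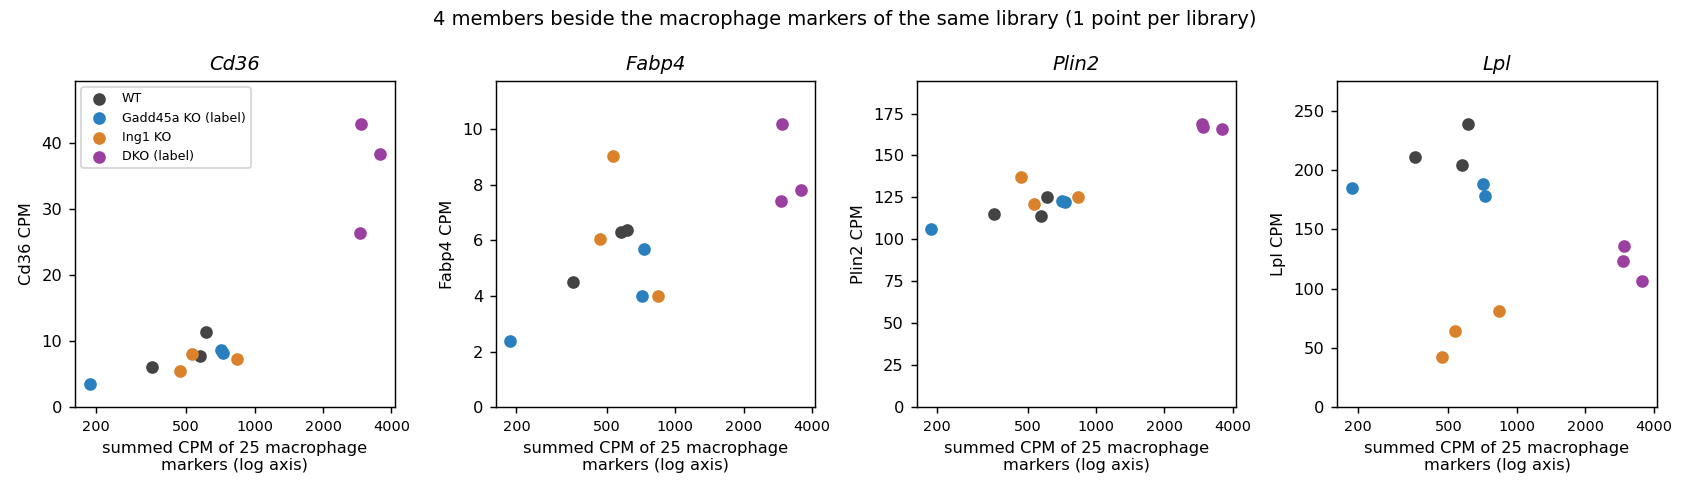
Level (CPM, linear y axis) of Cd36, Fabp4, Plin2 and Lpl in each of the 12 libraries against the summed CPM of 25 macrophage markers in the same library (log x axis), coloured by group. The 3 labelled DKO libraries stand apart at 2920 to 3570 CPM of macrophage markers. Cd36 is at 26.4 to 42.9 CPM in them, Plin2 at 166 to 169 CPM and Lpl at 106 to 136 CPM. In the other libraries Lpl ranges from 42.4 to 239 CPM at 188 to 837 CPM of markers. The part of macrophages was not tested.

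The labelled DKO was also set against each group labelled as a single knockout. These comparisons share libraries with those above and are not independent of them. Against the labelled Gadd45a KO, 4 of 10 genes were called in the labelled DKO, beside 26.4% of all genes, 3 of them higher (15.8% of all genes) and 1 lower (10.6%). The groups did not overlap for 6 of the 10, beside 45.7% of all genes. Cd36 rose 5.26-fold (log2 fold change 2.39 ± 0.36), Plin2 rose 1.43-fold (0.52 ± 0.063), Fabp4 rose 2.1-fold (1.07 ± 0.34, edgeR adjusted p = 0.0441) and Plin4 fell 1.98-fold (-0.99 ± 0.28, adjusted p = 0.0204). The count was 2 without labelled Gadd45a KO replicate 1, labelled DKO replicate 1 or labelled DKO replicate 3, which left Cd36 and Plin2. All 25 macrophage markers were higher in this comparison, with a median of 2.43 (log2), and their part was not tested. The call of Fabp4 was also lost without labelled Gadd45a KO replicate 3 (adjusted p = 0.11) or labelled DKO replicate 2 (0.129), with no filter (0.108), with the replicate block (0.052) and with only these groups (0.0531). The call of Plin4 was also lost with DESeq2 (adjusted p = 0.0769). Lpl, at a log2 fold change of -0.59 (95% interval -1.03 to -0.15), had an edgeR adjusted p of 0.0529 and was called lower with RLE factors (0.0498), DESeq2 (0.0165) or only these groups (0.00331).

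Against Ing1 KO, 5 of 10 genes were called in the labelled DKO, beside 24.8% of all genes, 4 of them higher (14.9% of all genes) and 1 lower (9.88%). The groups did not overlap for 6 of the 10, beside 39.1% of all genes. Angptl4 was 2.39-fold higher in the labelled DKO (log2 fold change 1.25 ± 0.19, edgeR adjusted p = 0.00188) and Lpl 1.95-fold higher (0.96 ± 0.20, adjusted p = 0.00819). Cd36 was 5.19-fold higher (2.38 ± 0.36) and Plin2 1.31-fold higher (0.39 ± 0.062). Plin4 was 4.55-fold lower (-2.19 ± 0.25, adjusted p = 0.000162). All 25 macrophage markers were higher in this comparison as well, with a median of 2.27 (log2).

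The interaction asks whether the labelled loss of Gadd45a went with another change in cells without Ing1 than in cells with it. It was called for 5 of 10 genes, beside 17.8% of all genes, 4 of them above 0 (10.4% of all genes) and 1 below (7.4%). It was 2.67 ± 0.51 for Cd36 (edgeR adjusted p = 0.0104), 1.46 ± 0.27 for Angptl4 (0.00856), 1.21 ± 0.28 for Lpl (0.0206), 0.40 ± 0.088 for Plin2 (0.0104) and -2.12 ± 0.36 for Plin4 (0.00358), all on the log2 scale. The call of Lpl was lost without WT replicate 2 (1.14, adjusted p = 0.0578). Of the macrophage markers, 14 of 25 were called higher in the interaction, with a median of 2.23. The lipolysis and synthesis genes were not called: Lipe had -0.013 (95% interval -0.53 to 0.51), Pnpla2 -0.29 (-0.55 to -0.04) and Dgat1 -0.16 (-0.32 to 0.0054). Without WT replicate 1 Pnpla2 was called (-0.40, adjusted p = 0.0116).

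Ranked by group mean, Lpl went from the WT at 218 ± 18 CPM to the labelled Gadd45a KO at 184 ± 5.2, the labelled DKO at 122 ± 15 and Ing1 KO at 62.6 ± 20 CPM (SD, n = 3 each). No neighbours in that order overlapped between libraries, and only the step from the labelled DKO to Ing1 KO was called among the neighbours tested here. Angptl4 was highest in the labelled DKO at 69.8 ± 5.5 CPM, then the WT at 63.8 ± 11 and the labelled Gadd45a KO at 55.5 ± 10 CPM. Libraries of the WT overlapped those of both. It was lowest in Ing1 KO at 29.3 ± 6.3 CPM, apart from the rest. Cd36 stood at 35.9 ± 8.5 CPM in the labelled DKO, and the WT at 8.36 ± 2.7, Ing1 KO at 6.9 ± 1.3 and the labelled Gadd45a KO at 6.79 ± 2.9 CPM overlapped. Dgat1 varied least, from 18.7 ± 0.65 CPM in the WT to 20.3 ± 0.73 CPM in Ing1 KO, and its highest and lowest group means differed 1.09-fold, beside 1.22-fold for Pnpla2 and 1.25-fold for Lipe. Lipe overlaps 4732471J01Rik on the other strand, which stood at 0.0466 CPM or less in every group mean.

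For the 5 genes whose group means differed at least 2-fold, the genes of most similar pattern were those with the smallest root mean square difference of centred log2 CPM over the 12 libraries, among 12444 candidates. For Cd36 they included Slc7a8 at 0.22 and Plek at 0.23, where Cd36 itself varied by 1.09 (SD, log2). Slc7a8 encodes an amino acid transporter and Plek the protein pleckstrin of blood cells. For Lpl they were Frem1, an extracellular matrix gene, at 0.16, Sncaip at 0.22 and Cpxm2 at 0.22. For Angptl4 they were Reps2 at 0.16, Batf at 0.18 and Tmem229b at 0.2. For Plin4 they were Adcyap1r1 at 0.24, Hid1 at 0.25 and Anxa8 at 0.26, and for Fabp4 Tnfsf9 at 0.25, S1pr1 at 0.28 and Retreg1 at 0.29. The level of Frem1 went from 35.4 CPM in the WT to 9.97 CPM in Ing1 KO and 21 CPM in the labelled DKO.

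Other genes of fatty acid uptake, where called against the WT, were higher. Of 18 tested, 4 rose and none fell in Ing1 KO (22.2%, close to the 23.5% of all genes called), with a median of 0.12 (log2) beside -0.0026 for all genes. They included Scarb1, a lipoprotein receptor gene, at 0.34 and Cav1, the caveolin gene, at 0.24. In the labelled DKO 5 of 18 rose and none fell (27.8%, close to the 25.9% of all genes), with a median of 0.15 beside 0.0085 for all genes, among them Scarb1 at 0.58, the fatty acid transporter gene Slc27a1 at 0.63 and the acyl-CoA synthetase gene Acsl1 at 0.41. Against the labelled Gadd45a KO 7 rose and none fell (38.9%, beside 26.4% of all genes), among them Fabp5, a relative of Fabp4 that macrophages also make, at 0.61. Against Ing1 KO 5 rose and 4 fell (50%, beside 24.8% of all genes), with Cav1 at -0.34 and its partner Cavin1 at -0.31. In the interaction 2 were above 0 and 3 below (27.8%, beside 17.8% of all genes), with Cavin1 at -0.36 and Fabp5 at 0.58. Gpihbp1, whose product holds lipoprotein lipase on endothelium, had no read in any library.

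Genes of triglyceride synthesis and the droplet went both ways. In Ing1 KO 2 of 18 tested rose and 3 fell (27.8%, near the 23.5% of all genes), with Mogat2 at 0.97, Gpam, the enzyme of the first step of glycerolipid synthesis, at -0.32, and G0s2, an inhibitor of the Pnpla2 lipase, at -0.93. In the labelled DKO 2 rose and 3 fell (27.8%, near the 25.9% of all genes), with Lpin2 at 0.28, Gpam at -0.31, Abhd5, the activator of the Pnpla2 lipase, at -0.3 and G0s2 at -1.08. The medians were -0.019 and -0.035 (log2). Against Ing1 KO 2 rose and 2 fell (22.2%, beside 24.8% of all genes), with Lpin2 at 0.42, Hilpda at 0.82 and Lpin3 at -1.12. Against the labelled Gadd45a KO 2 rose and 5 fell (38.9%, beside 26.4%). The droplet coat of most cells besides Plin2, Plin3, had means of 89.9 ± 4.7 CPM (WT) and 88.7 ± 1.9 CPM (labelled DKO), with SD over 3 libraries. In the interaction 1 gene of this list was called (5.56%, beside 17.8% of all genes), Lpin2 at 0.45.

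The PPAR receptors and the enzymes of fatty acid oxidation were also mixed. Of 19, 2 rose and 6 fell in Ing1 KO (42.1%, beside 23.5% of all genes), among them Ppard at 0.35, its partner Rxra at -0.27 and Cpt1a, which admits fatty acids to mitochondria, at -0.36. In the labelled DKO 3 rose and 4 fell (36.8%, beside 25.9% of all genes), among them Ucp2, a mitochondrial carrier gene that macrophages also express, at 1.97, Ppargc1b at 1.03 and Pparg, the master regulator of fat cells, at -0.78. The medians were -0.1 and -0.042 (log2). Of the 14 fat cell identity genes only 5 were tested, Pparg, Cebpa, Trarg1, Klf15 and Adrb3. Cebpa (-0.85 ± 0.12, edgeR adjusted p = 0.000436) and Pparg (-0.58 ± 0.17, adjusted p = 0.0263) fell in Ing1 KO. In the labelled DKO Klf15 (-1.91 ± 0.34), Trarg1 (-2.11 ± 0.46) and Pparg (-0.78 ± 0.17) fell, and Trarg1 held at most 34 reads in a library. In the interaction, Cebpa was at 0.79 and Klf15 at -1.58 among these. In the PPAR and oxidation list 3 of 19 were called above 0 and 1 below (21.1%, near the 17.8% of all genes). They included Acadl at 0.38, Cpt1a at 0.39 and Ucp2 at 1.71. In the labelled Gadd45a KO none of the tested genes of these lists was called by edgeR.

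**Figure D4:**
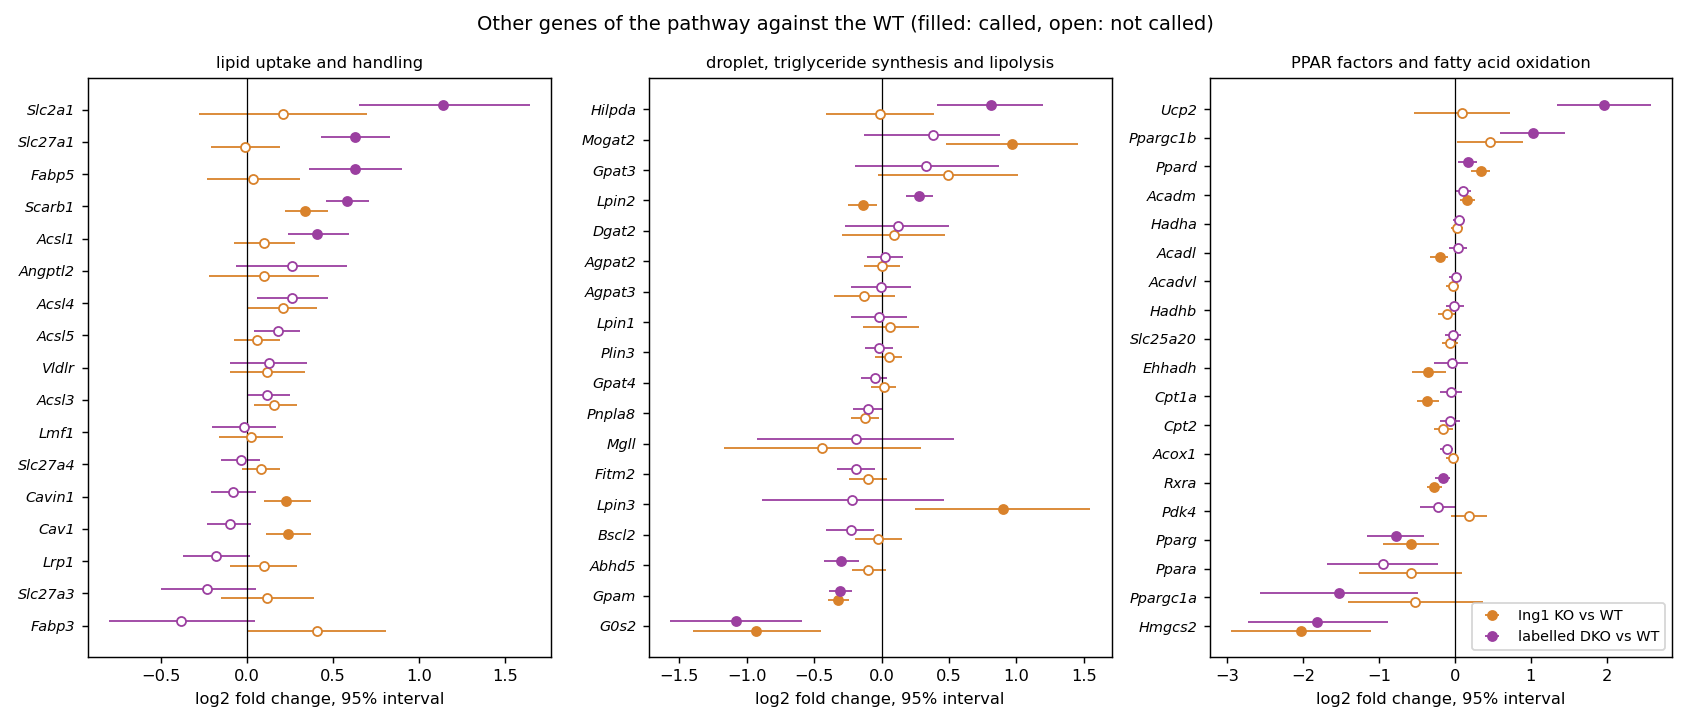
Log2 fold change against the WT (x axis, 95% intervals) of other genes of the pathway, in Ing1 KO (orange) and the labelled DKO (purple); filled points were called. Fatty acid uptake genes were called only on the higher side, with Scarb1 at 0.34 and 0.58, and Ucp2 stands at 1.97 in the labelled DKO.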

How the data were processed

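The authors deposited whole-number counts by Ensembl gene, in a separate table for each library. The submitters' processing notes name TopHat2 2.0.9, Bowtie2 2.1.0, HTSeq 0.5.4 and the build mm9 (NCBIM37), with no strand setting. Polyadenylated RNA was read for 51 cycles with an unstranded kit, per the labels' protocols. The 5 summary lines of each table, 23.89% to 24.91% of its reads, were left out. Symbols, lengths and overlaps came from GENCODE M21, another build.

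All 12 libraries were fitted in 1 model with edgeR 4.0.16 (R 4.3.3): TMM, filterByExpr, robust quasi-likelihood, two-sided tests, Benjamini-Hochberg over 15098 genes. The SE is the absolute log2 fold change divided by the square root of the quasi-likelihood F statistic. Intervals are 95%, from this SE. DESeq2 1.42.0, RLE factors, no filter, only the groups compared, a replicate block and leaving out each library were the alternatives. The test was tried on simulated data. An exact permutation test of 3 against 3 cannot go below 0.1, so none was run. Replicate pairs differed by more than counting noise (chi-square over its degrees of freedom 5.65 to 34.04).

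The genes and lists were chosen with earlier results of these data known. Named are the 10 genes in every comparison, up to 3 called members of each list with the smallest adjusted p, defining markers, and genes of similar pattern. Plin3, Gpihbp1, Des, Flt1, Cldn5, Pax7, G0s2 in the labelled DKO and the overlapping genes were named after their values were seen. Some genes that this rule names are not reported here.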

Additional observations from a re-analysis of the deposited data

Results flagged for a closer look

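The effect that goes with the labelled loss of Gadd45a differed between cells with and without Ing1 for 5 of the 10 genes. This was by the test of the difference itself in edgeR, which called 17.8% of all genes tested. The log2 values of that difference were 2.67 for Cd36, 1.46 for Angptl4, 1.21 for Lpl, 0.40 for Plin2 and -2.12 for Plin4. The call of Lpl was lost without WT replicate 2 (edgeR adjusted p = 0.0578). Lpl and Angptl4 were lower in Ing1 KO than in the labelled DKO, and Plin4 was higher. Cd36 and Plin2 were at their highest in the labelled DKO, whose macrophage markers were higher too, and the part of those cells was not tested.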

How the results depend on the processing

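Of 60 fold changes (10 genes in 6 comparisons), 22 were called. Of these, 17 kept their direction and their call under every alternative run, 5 lost the call under at least 1, given in the report, and none changed direction. Of the 38 that were not called, 4 gained a call under at least 1 alternative.

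The number of genes called ran from 3 to 4 in Ing1 KO against the WT and in the labelled DKO against the WT when each library was left out, stayed at 0 in the labelled Gadd45a KO and at 5 in the labelled DKO against Ing1 KO, and ran from 2 to 4 in the labelled DKO against the labelled Gadd45a KO and from 4 to 6 in the interaction. With the replicate block the counts were 4, 0, 4, 3, 5 and 5, in the order Ing1 KO, labelled Gadd45a KO and labelled DKO against the WT, labelled DKO against the labelled Gadd45a KO and against Ing1 KO, and interaction. Whether the replicate numbers pair the libraries could not be settled with 3 libraries in each group. Deviations of same-numbered libraries had correlations of -0.177 to 0.336, and 4 of 18 pairs were over 0.1. Same-numbered pairs of the WT and the labelled Gadd45a KO were at 0.336, 0.105 and 0.129. A library's best partner had its own number in 13 of 36 cases.

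Signs changed for 12 fold changes that were not called under any setting, from -0.3 for Cd36 in the labelled Gadd45a KO and -0.28 for Cd36 in Ing1 KO to 0.15 for Fabp4 in Ing1 KO, and the cause was not tested. Dgat1 in the labelled DKO against the WT had -0.0077 with RLE, -0.0081 with DESeq2, -0.0078 with no filter and -0.0088 with only these groups. When each library was left out, the log2 fold change ran for Fabp4 from -0.19 to 0.4, Cd36 from -0.47 to 0.01 and Lipe from -0.21 to 0.092 in Ing1 KO, and Cd36 from -0.52 to 0.0084, Plin2 from -0.051 to 0.051, Plin4 from -0.21 to 0.084 and Slc2a4 from -0.11 to 0.25 in the labelled Gadd45a KO, and Dgat1 from -0.03 to 0.027 in the labelled DKO, and Lipe from -0.14 to 0.041 and Pnpla2 from -0.054 to 0.035 in the labelled DKO against the labelled Gadd45a KO, and Lipe from -0.14 to 0.16 and Slc2a4 from -0.032 to 0.32 in the interaction.

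Plin4 and Slc2a4 are limited by depth, at 8 to 53 and 38 to 89 reads per library.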
